A study of Mus musculus with 12 samples.

Results

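Cadherins are membrane proteins whose extracellular repeats bind calcium and hold neighboring cells together. The classical cadherins bind their own kind across the cell contact and are anchored to actin through catenins. The protocadherins are a large related group, many of them neuronal, that give developing neurons surface identities and serve in the spacing of their arbors and in synapse formation. In the retina they serve lamination and the choice of synaptic partners. *Pcdh15* and *Cdh23* form the tip links of inner ear hair cells, and *Pcdh15* is also found in photoreceptors.

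The members are the genes whose symbol is *Cdh* followed by a number or starts with *Pcdh*, *Cdh5* excepted, at a probe set with 1 gene symbol. Where a gene had several such probe sets, the one with the highest mean deposited signal over all 12 arrays was taken. The rule found 55 genes of 18194 with such a probe set, on 99 of 45101 probe sets, and all 55 matched the gene table by Entrez identifier. They comprise 4 type I classical cadherins, 10 type II classical cadherins, 6 other *Cdh* genes, 4 delta-1, 5 delta-2 and 3 other non-clustered protocadherins, 22 protocadherins of the beta cluster and 1 of the gamma cluster. The 6 probe sets that list several protocadherin or cadherin symbols were left out by the rule.

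The study profiled the *Otx2* conditional knockout (CKO) retina to ask which genes depend on *Otx2*, a homeobox gene required for the photoreceptor fate. The 12 whole-retina arrays form 4 groups of 3, numbered as experiments 1 to 3 in each. Control mice were otx2 flox/flox; Crx-Cre- and CKO mice were otx2 flox/flox; Crx-Cre+, each at postnatal day 1 (P1) and day 12 (P12). All groups therefore carry the floxed *Otx2* alleles, and the CKO mice add Cre under the *Crx* promoter, which is active in developing photoreceptors. *Otx2* was not measured by cell type. The strain, and whether each array came from 1 animal or a pool, are not given in the sources used here, and p-values measure the spread between these arrays. In some samples the description line disagrees with the title on the genotype. Their groups were taken from the title, which the source name and the genotype field match.

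Values below are linear array signals after quantile normalization of the 12 arrays. Log2 changes and their standard errors (SE) are of the normalized signal plus 16, fitted with limma, and p-values were adjusted by Benjamini-Hochberg across the probe sets whose mean reached 50 in a group compared, with a threshold of 0.05. As deposited, the 2% trimmed mean signal was 29.3 ± 0.848 (SD, n = 3) in P1 control, 25.1 ± 3.04 in P1 CKO, 102 ± 8.30 in P12 control and 130 ± 36.3 in P12 CKO arrays. Pairs of arrays in a group correlated between 0.909 and 0.974 at P1. At P12 this range was 0.752 to 0.938. *Otx2* itself was lower in every P12 CKO array, with a log2 change of -2.72 (SE 0.23, adjusted p = 1.53e-06). At P1 its arrays did not overlap either, with a log2 change of -1.02 (SE 0.23, adjusted p = 0.157, or 0.0563 with the experiment number as a block). Whether this probe set lies in the floxed region is not given in the sources used here.

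Marker genes show how the cell makeup of these retinas differed at P12. All 6 photoreceptor markers measured and the 4 tested bipolar markers fell in the CKO retina, the 4 microglial markers rose, and 2 of 6 amacrine, 1 of 4 Muller glial and 2 of 5 tested pigment epithelial markers rose. Of 2 tested horizontal cell markers 1 fell, and of 2 tested vascular markers 1 rose. No tested ganglion cell, progenitor or connective tissue marker passed the threshold, and none of 4 lens markers reached the signal limit. The summed signal of the 6 photoreceptor markers spanned 22262 to 24506 in P12 control and 603 to 1255 in P12 CKO arrays, and that of 6 amacrine markers 2637 to 2839 and 3587 to 4005. The 4 microglial markers summed to 238 to 448 in control and 690 to 1288 in CKO arrays, and the 4 Muller glial markers to 4068 to 4829 and 5039 to 5822. The 8 pigment epithelial markers summed to 588 to 1535 and 1026 to 2809, so these groups overlapped. At P1 the 5 tested photoreceptor markers fell and no tested marker of another list passed the threshold. In whole retina, fewer cells of a type and less RNA per cell cannot be told apart, and the part of these shifts in the values of the members was not tested.

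Of the 55 members, 27 reached the signal limit in at least 1 comparison and 28 in none. The members without a test in the genotype comparison at P12 included all but 1 of the "other" *Cdh* genes, *Cdh1*, *Cdh3*, 12 of 22 beta protocadherins and *Pcdhgc4*. Their highest group means ran from 3.09 for *Cdh19*, a Schwann cell lineage cadherin, to 61.8 for *Pcdhb22*, which reached the limit at P1. The low signal of *Cdh1*, the epithelial cadherin, and of *Pcdh12*, an endothelial protocadherin, holds for all groups: the group means of *Cdh1* lay between 11.6 and 17.2 and those of *Pcdh12* between 1.07 and 11.3.

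*Pcdh15* fell in the *Otx2* CKO retina at P12, and it was the only tested member that fell. *Pcdh15* encodes the protocadherin of the lower tip-link strand in hair cells and is an Usher syndrome gene. At P12 its signal was 124, 51.3 and 72.8 in control and 15.7, 14.6 and 14.2 in CKO experiments 1 to 3. The groups did not overlap, as in 12.6% of all tested probe sets in this direction, and the CKO values were nearly equal while the control values were spread. The log2 change was -1.61 (SE 0.30, adjusted p = 0.0018), and the signal limit was reached in control retinas alone. At P1 it was 86.6, 52.3 and 42.5 in control and 26.9, 8.75 and 15.3 in CKO retinas. These groups did not overlap either, and each CKO array was below the control array of its own experiment. The P1 log2 change of -1.21 (SE 0.30) had an adjusted p of 0.278, which became 0.0361 with the experiment number as a block. At P1 too the signal limit was reached in control retinas alone, where it is high. At P1, 0.246% of all tested probe sets were called lower, and 0.303% with the block. The P1 groups did not overlap downward in 3.88% of all tested probe sets and upward in 5.89%. The genotype effect did not pass a test of its difference between the ages (-0.41, SE 0.42, adjusted p = 0.718). Both other *Pcdh15* probe sets had lower means in the P12 CKO retina, with log2 changes of -1.06 (SE 0.19, adjusted p = 0.00156) and -1.18 (SE 0.52, adjusted p = 0.15).

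*Cdh7* and *Cdh9*, both type II classical cadherins expressed by subsets of retinal neurons, did not reach the signal limit, but their arrays separated at P12 in opposite directions. *Cdh7* had signals of 9.86, 7.85 and 22.2 in control and 47.7, 42.2 and 44.5 in CKO retinas. Every CKO array was above every control array, while at P1 all 6 values lay between 10.2 and 13.6. *Cdh9* had signals of 66.3, 22.4 and 42.5 in P12 control and 8.51, 14.3 and 9.12 in P12 CKO retinas. Here every CKO array was below every control array, and the P1 signals were at or below 9.31 in both genotypes. On the signals as deposited, where both reached the limit, *Cdh7* was called higher (log2 change 1.46, adjusted p = 0.00318) and *Cdh9* lower (-1.07, adjusted p = 0.0242). On that scale 14.0% of all tested probe sets were called higher and 4.48% lower, with a median log2 change of 0.39. Another *Cdh7* probe set tested there was not called (1.06, adjusted p = 0.0825). After normalization both other *Cdh7* probe sets overlapped between the P12 groups, though each was higher in all 3 experiments.

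The stretches of 250 bases before the transcription start of these 3 genes are printed here because their P12 groups did not overlap and their log2 changes (-1.61, -1.10 and 1.08 for *Pcdh15*, *Cdh9* and *Cdh7*) were the largest among the members of which that was true. They are RefSeq sequences on GRCm38.p6, all on the plus strand: *Pcdh15* at chr10:73821617-73821866, *Cdh9* at chr15:16728665-16728914 and the first of 3 listed starts of *Cdh7* at chr1:109982650-109982899. Capitals mark TAATC, the core bound by homeodomains of the OTX kind, or GATTA, the same core on the opposite strand.
Pcdh15: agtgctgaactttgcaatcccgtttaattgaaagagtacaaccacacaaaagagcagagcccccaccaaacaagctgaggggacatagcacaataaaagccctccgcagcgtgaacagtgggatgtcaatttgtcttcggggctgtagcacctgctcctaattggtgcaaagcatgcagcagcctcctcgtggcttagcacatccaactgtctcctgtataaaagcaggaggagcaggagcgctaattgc
Cdh9: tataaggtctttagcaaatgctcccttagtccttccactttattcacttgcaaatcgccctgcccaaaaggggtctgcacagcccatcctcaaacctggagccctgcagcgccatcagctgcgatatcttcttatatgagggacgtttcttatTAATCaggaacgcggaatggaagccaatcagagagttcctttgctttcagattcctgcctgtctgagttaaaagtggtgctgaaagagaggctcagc
Cdh7: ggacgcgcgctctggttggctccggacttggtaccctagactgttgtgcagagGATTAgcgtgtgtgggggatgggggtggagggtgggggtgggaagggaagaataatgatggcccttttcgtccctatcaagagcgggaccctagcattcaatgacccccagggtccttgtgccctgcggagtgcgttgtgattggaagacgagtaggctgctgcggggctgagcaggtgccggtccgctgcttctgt
The match lies 97 bases before the start in *Cdh9* and 197 bases before it in *Cdh7*, and the *Pcdh15* window holds none. The windows of the other listed *Cdh7* starts, not printed here, hold none either. Of the 20 members with an entry, 4 held the motif on either strand in any of their windows (*Cdh7*, *Cdh9*, *Cdh10* and *Cdh26*). Counted by window, 19.8% of all 32851 listed windows held it. A gene with several starts has several windows, so the count by gene and the share by window are unlike measures. A match of 5 letters is a description of the window and not a binding site, and 35 members were without an entry.

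**Figure D1:**
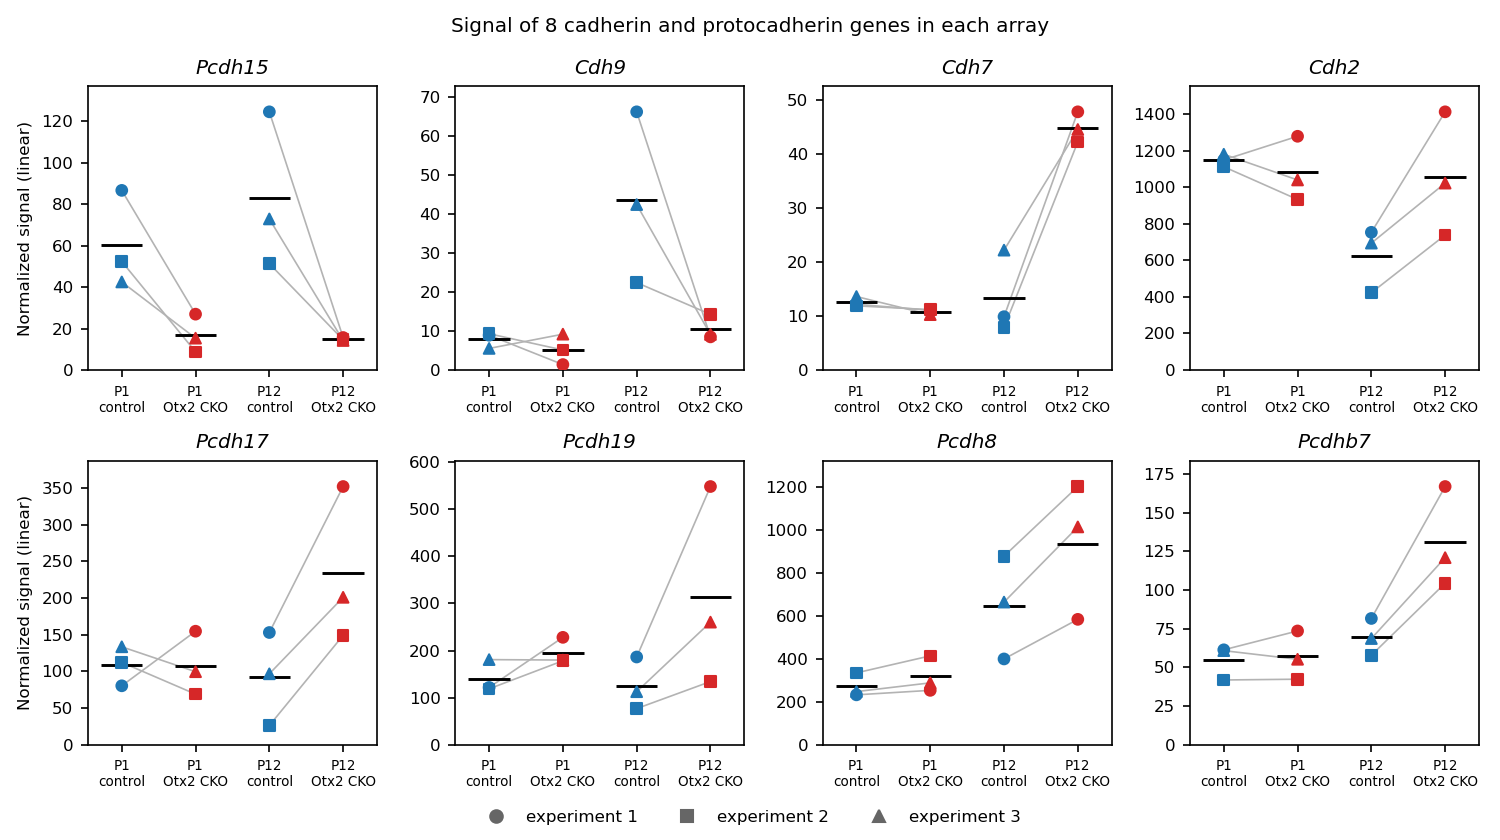
Normalized signal (linear, vertical axis from 0, scale set for each gene) of 8 members in the 12 arrays, by group along the horizontal axis. Circles, squares and triangles are experiments 1, 2 and 3, blue is control, red is *Otx2* CKO, grey lines join the genotypes of 1 experiment at 1 age, and black bars are group means. *Pcdh15* and *Cdh9* lie lower and *Cdh7* and *Pcdhb7* higher in every P12 CKO array, while *Cdh2*, *Pcdh17*, *Pcdh19* and *Pcdh8* overlap between groups but rise along every P12 line.

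The other tested members leaned the opposite way at P12. Of 26 members tested, 23 had a log2 change above 0, against 55.5% of all 16995 tested probe sets, and the median was 0.51 against 0.07. Only *Pcdhb7* passed the threshold upward, 1 of 26 members beside 8.01% of all tested probe sets, while 8.51% of all were called lower. Within experiments, 22 of 26 members were higher in the CKO retina in all 3 experiments, beside 37.9% of all tested probe sets, and 2 were lower in all 3, beside 28.6%. Of the 26, 20 reached the limit in both groups, 5 only in CKO and 1 only in control retinas. Over all 55 members without a limit, 39 were above 0 (70.9%, against 50.8% of all probe sets). The 20 members whose mean over the 12 arrays reached 50 included 18 above 0.

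The experiment number mattered for these genes, because the P12 arrays of 1 experiment deviated together in both genotypes. With the experiment number as a block, 9 members were called higher and 1 lower, beside 13.5% and 11.5% of all tested probe sets. The 9 were *Cdh2*, *Cdh11*, *Pcdh11x*, *Pcdh17*, *Pcdh19*, *Pcdh8*, *Pcdhb7*, *Pcdhb9* and *Pcdhb17*. With the P12 arrays fitted alone and the same block, an alternative chosen after seeing the data, 17 members were called higher and 1 lower, beside 22.6% and 17.1% of all tested probe sets. This fit added *Cdh22*, *Pcdh7*, *Pcdh18*, *Pcdhb3*, *Pcdhb12*, *Pcdhb16*, *Pcdhb20* and *Pcdhb21*, with adjusted p-values from 0.0138 to 0.0369. When signals were used as deposited, 12 members were higher and 2 lower at P12. Among all 21390 probe sets tested on that scale 14.0% (2990) were higher and 4.48% (959) lower, in place of 1361 and 1447 after normalization.

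Among the type I classical cadherins, *Cdh2*, or N-cadherin, the main adhesion molecule of the retinal neuroepithelium and of glial and neuronal contacts, was higher at P12 with the experiment block. Its P12 signals were 754, 423 and 695 in control and 1413, 739 and 1023 in CKO retinas. Each CKO array was above the control array of its experiment, but the CKO value of experiment 2 lay below the control value of experiment 1. The log2 change was 0.74 (SE 0.24), with an adjusted p of 0.0517 and of 0.00526 with the block. The second *Cdh2* probe set passed without the block (0.85, SE 0.21, adjusted p = 0.0124). At P1 the means were 1148 ± 34.3 in control and 1084 ± 177 in CKO retinas (SD, n = 3), with a log2 change of -0.09 (SE 0.24, adjusted p = 1). The difference of the genotype effects between the ages was 0.83 (SE 0.34), with an adjusted p of 0.247 and of 0.0446 with the block.

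*Cdh4*, or R-cadherin, was 110, 169 and 131 in P12 control and 80.8, 139 and 120 in P12 CKO retinas. It was lower in all 3 experiments, though the groups overlapped, and the log2 change of -0.25 (SE 0.25) had an adjusted p of 0.563. The other tested *Cdh4* probe set gave -0.0015 (SE 0.32, adjusted p = 0.996), with mixed signs across the experiments.

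Among the type II classical cadherins, 4 were tested at P12, with log2 changes from 0.24 for *Cdh20* to 0.65 for *Cdh11*. All 4 were higher in every experiment, beside 37.9% of all tested probe sets. Of the 4, 2 reached the limit only in CKO retinas, where they are high. Without a limit on signal, 8 of the 10 type II genes were above 0. *Cdh11*, a cadherin of mesenchyme, was 321, 155 and 252 in control and 422, 308 and 401 in CKO retinas. The groups overlapped by 1 value, and the adjusted p of 0.11 (SE 0.26) became 0.0268 with the block. The other tested *Cdh11* probe set gave -0.09 (SE 0.24, adjusted p = 0.844), so the probe sets disagree. *Cdh22* did not pass the threshold at P12 (0.52, SE 0.31, adjusted p = 0.289, or 0.0857 with the block), but did with the P12 arrays fitted alone and the block (adjusted p = 0.0171). Its P1 arrays did not overlap, with 65.8, 78.1 and 78.9 in control and 82.3, 121 and 103 in CKO retinas (0.37, SE 0.31, adjusted p = 1). *Cdh8*, a type II cadherin below the limit, had overlapping P12 signals of 35.4 to 51.4 in control and 30.4 to 39.8 in CKO retinas.

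Of the other *Cdh* genes, *Cdh13*, the lipid-anchored T-cadherin, alone was tested. Its P12 signals were 52.2, 110 and 43.3 in control and 70.3, 112 and 72.9 in CKO retinas, with a log2 change of 0.32 (SE 0.28, adjusted p = 0.513). *Cdh23*, the tip-link partner of *Pcdh15*, was below the limit in every group, at 6.69 to 12.0 in P12 control and 17.2 to 19.6 in P12 CKO retinas. Its P12 groups did not overlap and were higher in CKO retinas, but the second *Cdh23* probe set, also below the limit, was lower in all 3 experiments, at 11.8, 15.7 and 2.56 in control and 6.77, 11.3 and 1.49 in CKO retinas.

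The delta protocadherins held the highest log2 changes of the tested members at P12. *Pcdh17*, a delta-2 protocadherin that gathers the WAVE complex at cell contacts, was 153, 26.2 and 96.6 in control and 352, 149 and 201 in CKO retinas. It was higher in all 3 experiments, with a log2 change of 1.35 (SE 0.44, adjusted p = 0.0542, or 0.00976 with the block). The other *Pcdh17* probe set was also higher in all 3 but did not pass (0.85, SE 0.37, adjusted p = 0.145, or 0.0801 with the block). *Pcdh19*, an epilepsy gene of the same class, was 186, 76.7 and 113 in control and 548, 134 and 260 in CKO retinas. Its log2 change was 1.09 (SE 0.40, adjusted p = 0.0789, or 0.0156 with the block), and another of its probe sets passed without the block (1.20, SE 0.27, adjusted p = 0.00686). A further *Pcdh19* probe set did not pass (0.66, SE 0.42, adjusted p = 0.341, or 0.165 with the block). *Pcdh8*, the activity-regulated protocadherin also called arcadlin, was 399, 876 and 663 in control and 583, 1200 and 1012 in CKO retinas. Its log2 change was 0.53 (SE 0.31, adjusted p = 0.293, or 0.0329 with the block). Its probe set is of the _x_at type, whose probes may also read other transcripts, and the other *Pcdh8* probe set gave 0.71 (SE 0.25, adjusted p = 0.0671, or 0.012 with the block).

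*Pcdh18* did not overlap between the P12 groups, at 63.7, 59.4 and 66.3 in control and 92.3, 81.7 and 101 in CKO retinas, but its log2 change of 0.44 (SE 0.19) had an adjusted p of 0.142, or 0.0345 with the P12 arrays fitted alone and the block. *Pcdh10* gave 0.26 (SE 0.44, adjusted p = 0.751) and was not higher in every experiment.

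Among the delta-1 protocadherins, *Pcdh11x*, the X-linked member, was 37.5, 0.642 and 29.9 in P12 control and 84.7, 24.9 and 53.6 in P12 CKO retinas. The control value of experiment 2 was close to 0, and the log2 change of *Pcdh11x* was 0.94 (SE 0.43, adjusted p = 0.17, or 0.0331 with the block). It reached the limit only in CKO retinas, where it is high. The other *Pcdh11x* probe set, below the limit, gave 0.39 (SE 0.43), with mixed signs across the experiments. *Pcdh9* was 282, 61.2 and 121 in control and 179, 57.4 and 127 in CKO retinas. The control values were widely spread, and the log2 change of -0.21 (SE 0.43) had an adjusted p of 0.807. A second *Pcdh9* probe set gave 0.22 (SE 0.30), the opposite sign. *Pcdh7* gave 0.60 (SE 0.52, adjusted p = 0.506, or 0.187 with the block), from 167, 22.4 and 106 in control to 198, 64.4 and 158 in CKO retinas. With the P12 arrays fitted alone and the block its adjusted p was 0.029.

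Much of the spread within the P12 groups followed the experiment number. In 15 of the 26 tested members the array of experiment 2 was the lowest of its group in both genotypes, among them *Cdh2*, *Cdh11* and all 3 tested delta-1 protocadherins. In 8 members it was the highest in both, among them *Pcdh8*, *Cdh13* and *Cdh22*. In 12 members the array of experiment 1 was the highest in both genotypes, *Pcdh15* included. These counts were not made over all probe sets. Arrays of the same number deviated together over 15872 probe sets at P12 (correlations of 0.58 to 0.89), so this is not particular to the members. What set the experiments apart at P12 was not tested.

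The beta protocadherins, each encoded by a single unspliced exon in 1 cluster, are expressed in varied combinations from neuron to neuron. All 10 tested at P12 were above 0, and all 10 were higher in the CKO retina in each of the 3 experiments, beside 37.9% of all tested probe sets. Of the 10, 8 reached the limit in both groups and 2 only in CKO retinas, where they are high, so this count is in part set by the limit. The 7 beta genes whose mean over the 12 arrays reached the limit were all above 0. The log2 changes of the 10 ranged from 0.29 for *Pcdhb10* to 0.77 for *Pcdhb7*, with a median of 0.53. *Pcdhb7* rose from 81.6, 57.8 and 68.6 in control to 167, 104 and 121 in CKO retinas. Its groups did not overlap, and the log2 change had an SE of 0.24 and an adjusted p of 0.0403, or 0.00462 with the block. Its call was lost in 8 of the 12 fits that left out 1 array. *Pcdhb9* was 171, 259 and 305 in control and 286, 457 and 473 in CKO retinas (0.70, SE 0.26, adjusted p = 0.0823, or 0.0276 with the block). *Pcdhb17* was 188, 107 and 142 in control and 285, 163 and 188 in CKO retinas (0.49, SE 0.25, adjusted p = 0.222, or 0.0444 with the block). In both the groups overlapped, and each CKO array exceeded the control array of its experiment.

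The P12 groups did not overlap for 4 of the 10 tested beta genes, *Pcdhb3*, *Pcdhb7*, *Pcdhb8* and *Pcdhb20*, beside 13.2% of all tested probe sets. *Pcdhb3* was 44.9, 66.1 and 67.5 in control and 100, 97.1 and 96.4 in CKO retinas (0.61, SE 0.24, adjusted p = 0.106, or 0.0175 with the P12 arrays fitted alone and the block). *Pcdhb20* was 106, 77.0 and 117 in control and 153, 124 and 165 in CKO retinas (0.50, SE 0.20, adjusted p = 0.115, or 0.0138 in that fit). Over all 22 beta genes, with no limit on signal, 17 were above 0 at P12 and 9 at P1. The beta genes share much of their sequence, probes of 1 gene may read another, and the 10 genes are not independent measurements.

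**Figure D2:**
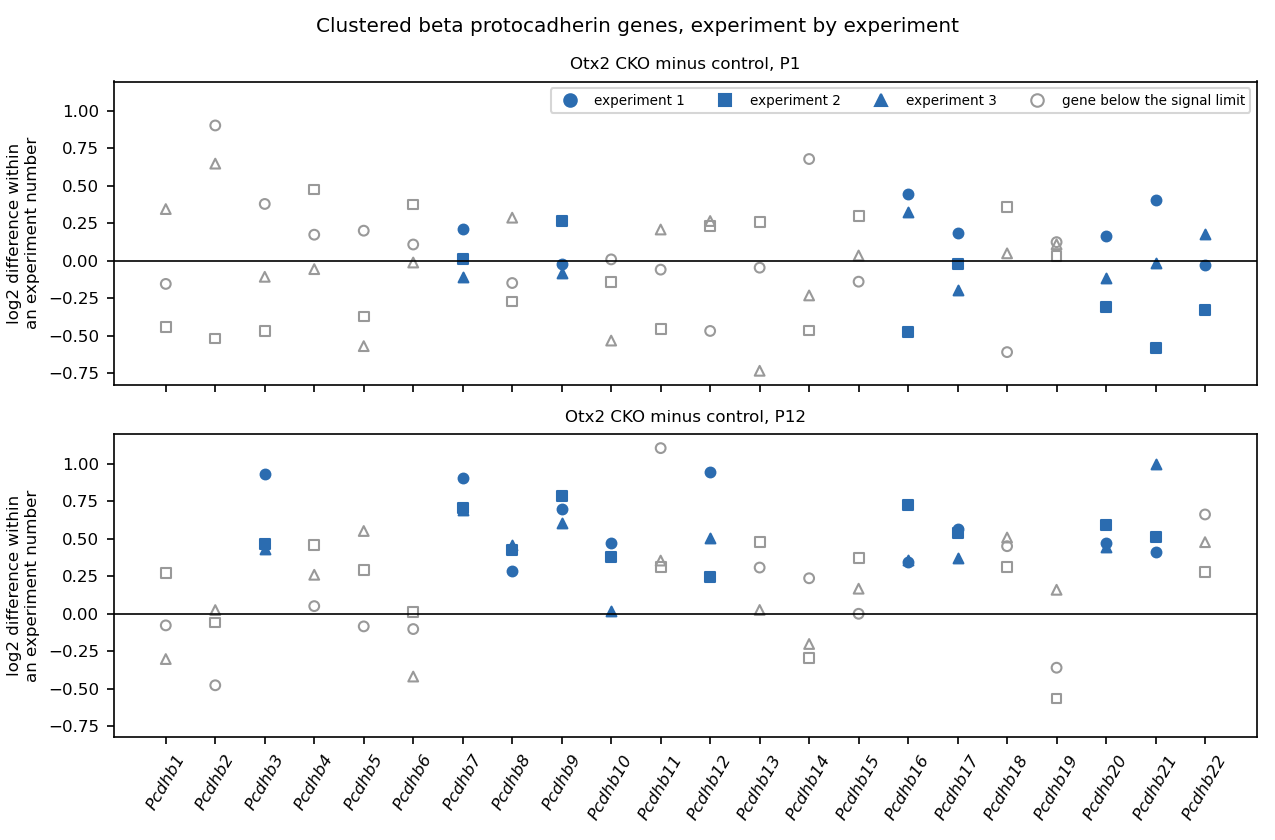
Log2 difference of *Otx2* CKO minus control (normalized signal plus 16) within each experiment number, for the 22 beta protocadherins along the horizontal axis, at P1 (upper panel) and P12 (lower panel). Circles, squares and triangles are experiments 1, 2 and 3, and open grey symbols are genes below the signal limit in that comparison. At P12 all filled symbols of the 10 tested genes lie above 0, and at P1 the 7 tested genes lie on both sides.

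**Figure D3:**
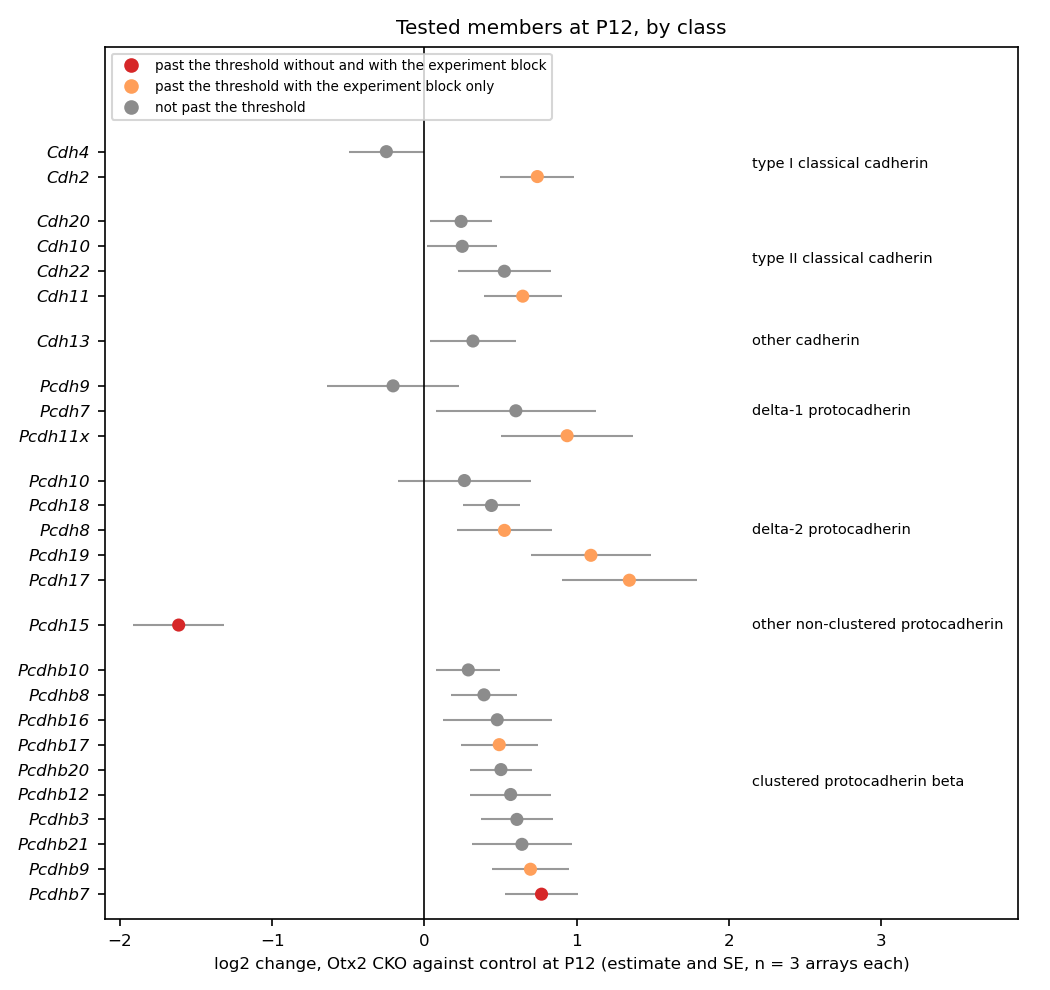
Log2 change of *Otx2* CKO against control at P12 (horizontal axis, normalized signal plus 16) for the 26 tested members, grouped by class, with bars of 1 SE (n = 3 arrays in each group). Red marks genes past the threshold without and with the experiment block (*Pcdh15* lower, *Pcdhb7* higher), orange those past it only with the block, and grey the others. The estimates run from -1.61 to 1.35, and 23 of 26 lie above 0.

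At P1 the members showed no such lean. Of 18 tested, 7 were above 0 and 11 below, with a median of -0.05 against 0.01 for all 15865 tested probe sets. No member passed the threshold, nor did any probe set upward (0%). At an unadjusted p under 0.05 the count was 1, *Pcdh15*, beside 182 higher and 205 lower of all 15865 tested probe sets. Estimates ran from -1.21 for *Pcdh15* to 0.45 for *Pcdh19*, and the 7 tested beta genes lay between -0.09 and 0.10. In the difference of the genotype effects between the ages, 25 of 27 tested members were above 0, against 54.8% of all 18643 tested probe sets. The median was 0.53 against 0.06 for all probe sets. None passed the threshold, and with the block the count was 1, *Cdh2*. At an unadjusted p under 0.05, 4 members were higher and 0 lower, beside 1413 and 1493 of all 18643. Among all probe sets, 1.27% were called with a higher and 3.19% with a lower effect at P12, and 3.41% and 4.73% with the block. The genotype effects at the separate ages and their difference share these arrays, and are not separate evidence.

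Normal maturation moved the members in both directions. Between P1 and P12 in control retinas, 4 of 23 tested members rose and 4 fell, beside 19.5% and 19.8% of all 17636 tested probe sets. Of the 23, 16 reached the limit at both ages, 5 at P12 alone and 2 at P1 alone. Among the called members *Cdh13* and *Pcdhb3* reached it at P12 alone, and *Cdh20* and *Pcdhb22* at P1 alone. Each passed through the age where it is high, so these counts are in part set by the limit. Those that rose were *Pcdhb9* (1.26, SE 0.26, adjusted p = 0.00146), *Pcdh8* (1.15, SE 0.31, adjusted p = 0.00902), *Cdh13* (0.82, SE 0.28, adjusted p = 0.0329) and *Pcdhb3* (0.64, SE 0.24, adjusted p = 0.0469). *Pcdh8* lay between 232 and 334 at P1 and between 399 and 876 at P12. *Cdh13* lay between 22.7 and 37.3 at P1 and between 43.3 and 110 at P12, so neither gene's groups overlapped. With the experiment block *Pcdh10* was called higher too (0.91, SE 0.32, adjusted p = 0.0318), which made 5 members higher and 4 lower beside 23.9% and 26.6% of all.

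The members that fell were 3 classical cadherins and 1 beta protocadherin. *Cdh20*, a type II cadherin, was 124, 133 and 130 at P1 and 36.2, 54.3 and 35.1 at P12 (-1.34, SE 0.21, adjusted p = 1.70e-04). *Cdh2* was 1113 to 1181 at P1 and 423 to 754 at P12 (-0.90, SE 0.24, adjusted p = 0.00903). *Pcdhb22* was 57.9 to 64.3 at P1 and 22.9 to 27.9 at P12 (-0.91, SE 0.19, adjusted p = 0.00211), and *Cdh11* fell by 0.74 (SE 0.26, adjusted p = 0.0352). For each of these 4 the P1 and P12 groups did not overlap, as in 26.1% of all tested probe sets downward and 24.8% upward. These falls are relative to the bulk of probe sets. As deposited, the median probe set was 1.45 higher at P12 than at P1 in control and 1.85 in CKO retinas, and on that scale all 4 had values above 0 (0.11 to 0.89), while relative to that median they were still below 0 (-1.34 to -0.55).

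In the *Otx2* CKO retina, 12 of 26 tested members rose between P1 and P12 and 1 fell, beside 14.3% and 13.2% of all 17252 tested probe sets. Of the 26, 15 reached the limit at both ages, 1 at P1 alone and 10 only at P12, where they are high, among them *Cdh10*, *Cdh13*, *Pcdh10*, *Pcdh18*, *Pcdhb3*, *Pcdhb8*, *Pcdhb10* and *Pcdhb12*, so the count of 12 is in part set by the limit. Of the 20 members whose mean over the 12 arrays reached 50, 16 were above 0, with a median of 0.53 against -0.03 for all such probe sets. Of the 12, 7 were beta protocadherins: *Pcdhb9* (1.90), *Pcdhb3* (1.31), *Pcdhb12* (1.13), *Pcdhb7* (1.01), *Pcdhb10* (0.97), *Pcdhb8* (0.88) and *Pcdhb20* (0.58), with adjusted p-values from 9.06e-05 to 0.0479. The others were *Pcdh8* (1.47, SE 0.31, adjusted p = 0.00293), *Pcdh10* (1.30, SE 0.44, adjusted p = 0.0395), *Pcdh18* (0.97, SE 0.19, adjusted p = 0.00183), *Cdh13* (0.95, SE 0.28, adjusted p = 0.0217) and *Cdh10* (0.85, SE 0.23, adjusted p = 0.014). With the block the counts were 15 and 1, beside 18.7% and 19.4%. *Cdh20* fell again (-1.05, SE 0.21, adjusted p = 0.00182), from 114 to 146 at P1 to 41.7 to 61.5 at P12.

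*Cdh2* and *Cdh11* had nearly the same group means at both ages in the CKO retina, 1084 ± 177 and 1058 ± 339 (SD, n = 3) for *Cdh2* and 370 ± 104 and 377 ± 60.9 for *Cdh11*. Their log2 changes with age were -0.07 (SE 0.24, adjusted p = 0.862) and 0.04 (SE 0.26, adjusted p = 0.919), beside -0.90 and -0.74 in control retinas. With an SE of 0.34, the difference for *Cdh2* passed only with the block, as given above, and that for *Cdh11* (0.78, SE 0.36) had an adjusted p of 0.321, or 0.103 with the block. Of the progenitor markers, all 5 fell with age in both genotypes, with summed signals of 148 to 160 in P12 control and 217 to 270 in P12 CKO retinas.

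**Figure D4:**
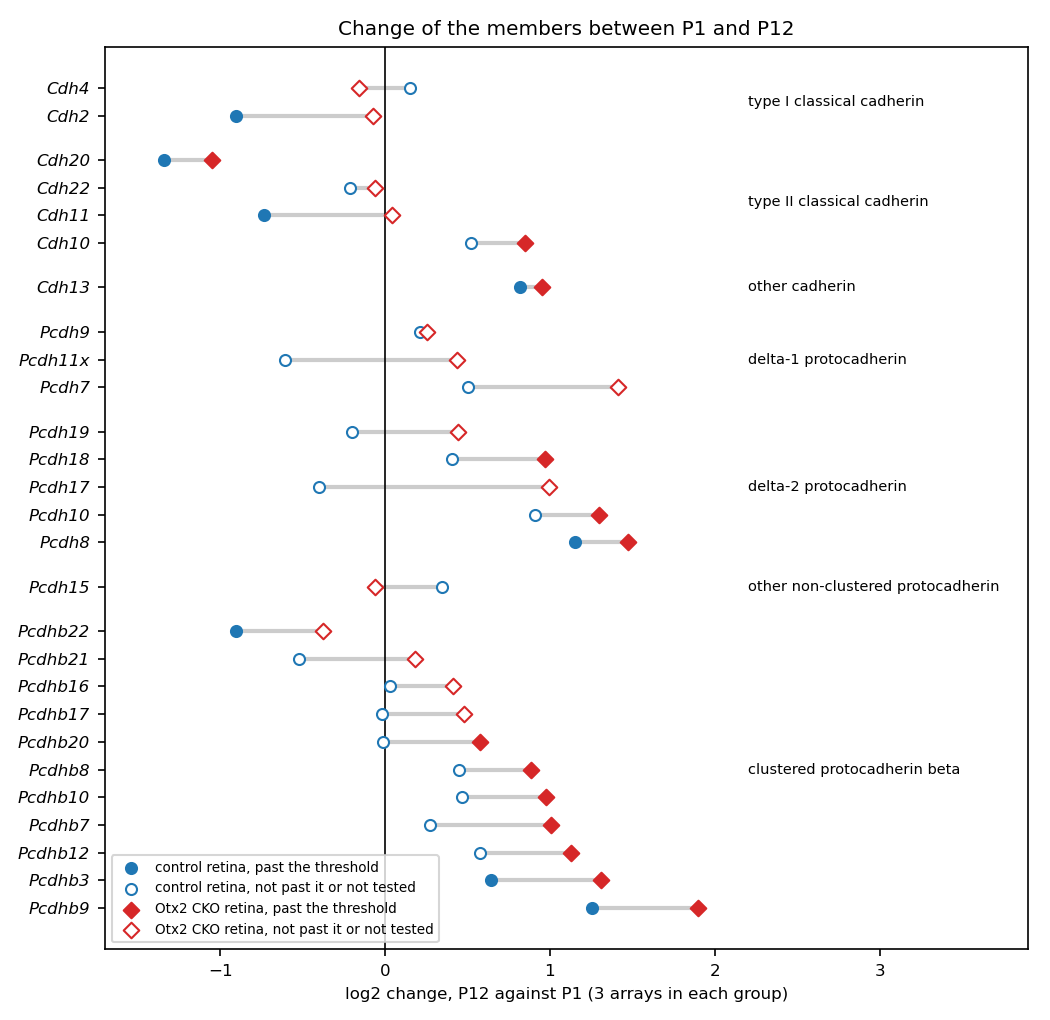
Log2 change of P12 against P1 (horizontal axis, normalized signal plus 16, n = 3 arrays in each group) for the 27 members tested in any comparison, by class. Blue circles are control and red diamonds *Otx2* CKO retinas, filled where the change passed the threshold, and a grey bar joins the genotypes of a gene. *Cdh20* lies below 0 in both genotypes, *Cdh2*, *Cdh11* and *Pcdhb22* are filled below 0 in control retinas alone, and *Pcdhb9* lies furthest to the right, at 1.26 and 1.90.

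Genes that work with the members were read from lists chosen by function. Of 17 tested catenin and adherens junction genes, 3 rose at P12 in the CKO retina and none fell, beside 8.01% and 8.51% of all tested probe sets. With the block 6 rose and *Ctnna1* fell, beside 13.5% and 11.5%. Those that rose without the block were *Magi1*, a junction scaffold (0.91, SE 0.25, adjusted p = 0.0231), *Ctnna2*, the neuronal alpha-catenin (0.70, SE 0.23, adjusted p = 0.0491), and *Afdn*, or afadin, which links nectins to actin (0.70, SE 0.21, adjusted p = 0.0331). *Ctnnb1*, the beta-catenin that binds classical cadherins, had group means from 2472 to 2665 in all 4 groups and a P12 log2 change of 0.04 (SE 0.11, adjusted p = 0.877). *Ctnna1* had a log2 change of -0.64 (SE 0.29, adjusted p = 0.158, or 0.0261 with the block). The median of the list was 0.48, against 0.07 for all tested probe sets.

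Of 11 tested genes of the wider cadherin superfamily, 4 rose at P12 and 1 fell, beside the same 8.01% and 8.51%, and the median was 0.35. *Fat1*, a giant cadherin, was higher (1.34, SE 0.17, adjusted p = 6.38e-05), as were its relative *Fat4* (0.93, SE 0.28, adjusted p = 0.0361), *Dchs1*, the partner of *Fat4* (0.97, SE 0.23, adjusted p = 0.0093), and *Ret*, a receptor tyrosine kinase with cadherin repeats (1.33, SE 0.25, adjusted p = 0.0021). The photoreceptor cadherin *Cdhr1* fell (-5.00, SE 0.24, adjusted p = 2.26e-08), and it was the only gene of the list that fell at P1 (-2.32, adjusted p = 3.92e-04). With the block *Clstn1*, a calsyntenin of synapses, was called lower too (-0.68, SE 0.23, adjusted p = 0.0598, or 0.0187 with the block). Of 11 tested partners and regulators of protocadherins, 3 rose and none fell, with a median of 0.55. They were *Dab1*, a reelin-pathway adaptor (1.14, SE 0.24, adjusted p = 0.00466), *Wasf1*, a WAVE subunit (0.86, SE 0.27, adjusted p = 0.0443), and *Ret*, which this list also holds. With the block the count was 5, beside 13.5% of all tested probe sets, with *Rad21*, a cohesin subunit (0.49), and *Adam10*, a sheddase of protocadherins (0.89). *Ctcf*, the insulator protein that sets promoter choice in the protocadherin clusters, had a P12 log2 change of -0.01 (SE 0.15, adjusted p = 0.979).

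Only 3 of the 9 tip-link and Usher complex genes with a probe set were tested at P12, and 2 of them, *Myo7a* and *Whrn*, reached the limit in control retinas alone, where they are high, so their share of calls is no result about the list. *Myo7a*, the unconventional myosin of the Usher complex, fell as *Pcdh15* did (-1.64, SE 0.28, adjusted p = 8.80e-04), and so did *Whrn*, or whirlin, a scaffold of the same complex (-0.93, SE 0.30, adjusted p = 0.0482). *Adgrv1*, the very large adhesion receptor of the complex, gave 0.27 (SE 0.27, adjusted p = 0.571). The photoreceptor markers fell at P12 beside *Pcdh15*, and at P1, where *Pcdh15* was called lower with the block alone. Their part in its values was not tested.

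Other probe sets of the members mostly pointed the same way. Of 44 further probe sets, 13 were tested at P12 beside a tested brightest one, and 11 of the 13 had its sign. Among these 11, that of *Cdh4* was close to 0 (-0.0015). The exceptions were those of *Cdh11* and *Pcdh9* given above.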

How the data were processed

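Per the study's methods, total RNA from dissected retina was converted to biotin-labeled cRNA and hybridized to whole-genome Affymetrix mouse arrays, and the authors computed signals with GeneChip Operating Software 1.4. The deposited table holds these signals as linear intensity values, 45101 probe sets on 12 arrays. No common scaling target is shared by the arrays, so they were quantile normalized here. Probe sets were named from the platform annotation (34958 with 1 symbol, 932 with several, 9211 not named), and the 64 control probe sets were left out. log2(signal + 16) was fitted over 4 groups with limma 3.58.1 in R 4.3.3 (lmFit, eBayes with trend). Probe sets were tested where a compared group's mean was at least 50, with Benjamini-Hochberg adjustment over all tested and a threshold of 0.05. The procedure was tested on simulated data. The number of arrays limits the precision.

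The members, gene lists and marker lists were chosen with earlier results of these data known. Any member may be named: full values are given for members past the threshold in a comparison, and per-array values for the largest change of each class in each direction at P12 and for others described. From each related list up to 4 genes past the threshold are named, and further genes named were chosen after their values were seen. Deviations from the group means correlated between control and CKO arrays of the same experiment number at 0.15 to 0.26 at P1 and 0.58 to 0.89 at P12 over 15872 probe sets, and at -0.80 to -0.02 between differing numbers. The numbers were therefore taken to pair the arrays, and the fit with the number as a block is printed where it changes a call.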

Additional observations from a re-analysis of the deposited data

Results flagged for a closer look

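By a test of the difference itself, the genotype effect on *Cdh2* differed between the ages by 0.83 on the log2 scale in the blocked limma fit (SE 0.23, adjusted p = 0.0446). The effect was -0.09 at P1 and 0.74 at P12. Without the block the adjusted p was 0.247 (SE 0.34), and over 21 alternative settings it ran from 0.0446 to 0.474 with the estimate between 0.58 and 1.32. The block gives arrays of 1 number a shared shift at both ages, and whether the numbers pair arrays across ages was not tested.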

How the results depend on the processing

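At P12 the count of members called higher, 1 after quantile normalization, was 12 on signals as deposited, 3 with normalization within each age, 0 with an offset of 1, 2 with an offset of 50, 3 with a limit of 100, 9 with the experiment number as a replicate block, 0 with each age fitted alone, 2 without the trend, 2 with the brightest probe set by normalized signal, 16 by the study's fold and signal limits without a test, and 17 with each age fitted alone and the block, an alternative chosen after seeing the data, beside 3847 higher and 2912 lower of all 16995 probe sets tested. The count called lower was 2 as deposited, within each age, with no filter and by the study's limits, and 0 with a limit of 100, which *Pcdh15* does not reach. Of all probe sets, 3744 of 21416 were higher by the study's limits, 1719 of 21166 within each age and 1164 of 11185 with a limit of 100. At P1, 1 member was lower with the block in either fit. In control maturation, 25 of 28 tested members were higher and 0 lower as deposited, beside 15355 and 277 of all 18560 probe sets. There 7 were higher with no filter, beside 4123 of 45037, and 2 with a limit of 100, beside 2502 of 11729. In CKO maturation, 34 of 34 tested were higher and 0 lower as deposited, beside 19859 and 129 of 20638. With a limit of 100, 5 were higher there, beside 1826 of 11403. The counts with age as deposited are near those of all probe sets and are no result about the members. The difference between ages gave 1 member higher as deposited and 1 with the block, beside 651 of 21530 and 636 of 18643 probe sets.

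As deposited, the changes with age of *Cdh11* (0.89), *Cdh2* (0.73), *Cdh20* (0.11, and 0.88 in CKO) and *Pcdhb22* (0.33) reversed, with the shift of all probe sets given in the report. Leaving out 1 array gave 0 to 5 members higher and 1 to 2 lower at P12, 0 in both directions at P1, 2 to 5 higher and 3 to 4 lower in control maturation, 8 to 13 higher and 1 lower in CKO maturation, and 0 higher and 0 to 1 lower for the difference. Without P12 control replicate 1 there were 5 higher at P12, without P12 CKO replicate 2 there were 4, and without P12 control replicate 2 there were 2 higher and 2 lower. *Pcdhb7* kept its call in 13 of 25 alternatives (adjusted p up to 0.137). Of 21 alternatives in control maturation, the call was lost in 11 for *Pcdhb3*, 6 for *Cdh11* and 5 for *Cdh13*. In CKO maturation it was lost in 11 for *Pcdhb20*, 9 for *Pcdh10*, 7 for *Pcdhb8* and 4 for *Cdh13*. These counts include settings in which the gene was not tested, and they were lower for the other called members. *Pcdh15* kept its P12 call in every alternative in which it was tested. Beyond the calls named in the report, the block, over all 12 arrays or within each age, changed no other call of a member in the genotype comparisons. In CKO maturation it added *Pcdh7* (1.41), *Pcdh17* (0.99) and *Pcdhb17* (0.48). The causes were not tested.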
